A study of Mus musculus with 28 samples.

Results

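The fibroblast growth factor (FGF) signalling genes examined here were 34 rows of the deposited expression table, chosen by name after the table's Entrez identifiers were matched to mouse gene symbols, of 19421 genes in all. They comprised 15 secreted ligands, 3 endocrine ligands, 4 intracellular FGF homologous factors, 4 receptors, 6 inhibitors of the pathway and 2 ETS transcription factors. The libraries came from 7 mouse embryonic stem cell (ESC) lines derived from A2loxCre cells, each carrying a doxycycline (Dox)-inducible cassette that ends in the fluorescent reporter mVenus. The cassettes encode Atoh1 (iAtoh1), Gfi1 (iGfi1), Pou4f3 (iPou4f3), Gfi1 and Atoh1 (iG+A), Gfi1 and Pou4f3 (iG+P), Pou4f3 and Atoh1 (iP+A) or all 3 factors (iGPA). In cassettes with several factors these are translated from 1 mRNA with 2A peptides between them. Cells kept on mouse embryonic fibroblasts were freed of these feeders and differentiated as embryoid bodies (EBs) without LIF. Dox libraries came from EBs given 2 µg/ml of Dox at day 4 for 48 h, from which mVenus+ cells were sorted by FACS at day 6. No Dox libraries came from whole, unsorted EBs of the same line and age that received no Dox. Each of the 14 groups held 2 libraries, described in the series record as made from different clones of a line, so every mean below has n = 2. The p-values rest on the spread between replicates, estimated over all 14 groups. The paper labels the replicates as experiments, so clone and experiment cannot be told apart in that spread. Within a line the effects of Dox and of sorting cannot be told apart. In bulk RNA, fewer cells of a type and less RNA per cell cannot be told apart either.

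Secreted FGFs bind receptor tyrosine kinases on the cell surface and activate the RAS and ERK cascade, which induces its own inhibitors of the Sprouty, Spred and Dusp families and the ETS factors Etv4 and Etv5. In the early embryo the pathway acts in exit from pluripotency, gastrulation and mesoderm movement, and later in induction of the otic placode and in formation of hair cells and supporting cells of the cochlea. The FGF homologous factors share the fold of the ligands but are not secreted, and bind voltage-gated sodium channels in neurons and other excitable cells.

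The mRNA of the factors matched the labels. Atoh1, Gfi1 and Pou4f3 each had far more normalized counts in the 8 Dox libraries whose line carries the cassette (lowest 12816, 8119 and 4694) than in the other 20 libraries (highest 120.1, 119.0 and 101.1). Levels below are normalized counts, the read counts of a gene scaled by the authors' DESeq2 size factors. The estimated depth was between 30.3 and 48.0 M reads per library (M for mega). Of the 34 FGF genes, 31 reached 10 normalized counts in 2 or more libraries and were tested. The other 3 were near 0, with a highest value of 3.66 for Fgf6, 3.93 for Fgf7 and 3.36 for Fgf20 over 28 libraries. A change was called where the adjusted p of limma was below 0.05 and the change, in either direction, reached 1.5 on the log2 scale. Changes are differences of log2(normalized count + 1), and the added 1 shrinks those of genes with few counts. SE is the standard error of a change. Untreated EBs held a mixture of cells by markers, with summed levels of 8405 to 31682 normalized counts for 10 genes of pluripotent and epiblast cells, 69339 to 506189 for 10 blood genes, 14460 to 23189 for 8 endothelial genes and 3548 to 6130.5 for 8 endoderm genes. With Dox, blood genes fell in iAtoh1 (7 of 10), iG+A (6), iP+A (6), iGPA (5) and iG+P cells (2), and 1 rose in iGfi1. Pluripotency genes fell in iP+A (5 of 10), iG+A (4), iGPA (4) and iG+P cells (2), and endothelial genes in iG+P (4 of 8), iAtoh1 (2), iP+A (1) and iGPA cells (1). Of 8 endoderm genes 1 or 2 fell in every line and 1 rose in iG+A and iGPA. Of 10 hair cell genes 6 rose in iGPA, 5 in iG+A, 5 in iG+P, 2 in iPou4f3, 2 in iP+A, 1 in iGfi1 and none in iAtoh1.

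Across the 7 lines, Dox cells differed from untreated EBs in 22 of 217 tests of an FGF gene in a line, 17 upward and 5 downward, and these fell on 11 genes. That was 10.1% of the tests, against 8.05% over all genes. Of the 17 rises, 16 (94.1%) were in the 4 lines whose cassette holds Gfi1, and so were 72.0% of the 5450 rises over all genes. The genes that rose were the ligands Fgf3, Fgf9 and Fgf17, the homologous factors Fgf11 and Fgf14, the receptor Fgfr4 and the ERK phosphatase Dusp6. Those that fell were the ligands Fgf4 and Fgf23 and the receptors Fgfr2, Fgfr3 and Fgfr4, the last of which rose in another line.

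Shares of all 16837 genes tested are given beside each count. In iAtoh1 cells 1 of 31 FGF genes rose (2.89% of all genes rose, 2.52% fell and 5.4% were called). In iGfi1 cells 3 rose (2.15%) and 1 fell (2.67%), 4 in all against 4.82%. In iG+A cells 5 rose (7.35%) and none fell (4.95%), against 12.3% called. In iG+P cells 2 rose (5.16%) and 2 fell (5.36%), against 10.5%. In iP+A cells none rose (4.7%) and 2 fell (2.58%), against 7.29%. In iGPA cells 6 rose (8.65%) and none fell (5.31%), against 14%. In iPou4f3 cells limma called none (1.47% of all genes rose, 0.606% fell and 2.08% were called). There 6 (19.4%) had an unadjusted p under 0.05, as did 18.2% of all genes, and 1 was called without the mean-variance trend (Fgf23), without a filter (Fgf7) or against all untreated libraries (Fgf23).

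As shares of 31, these counts were 12.9% in iGfi1, 16.1% in iG+A, 12.9% in iG+P and 19.4% in iGPA cells, above the share of all genes, and 3.23% in iAtoh1, 6.45% in iP+A and 0% in iPou4f3 cells, below it. No test was run on these shares. The median change of the 31 genes was 0.71 in iG+A and 0.34 in iGPA cells, −0.30 in iP+A, −0.22 in iPou4f3, −0.15 in iAtoh1, −0.09 in iG+P and 0.05 in iGfi1, while the median over all genes lay between −0.03 and 0.02 in each line. The genes tested had a larger SE (median 0.502) than all genes (0.184). With the replicate number as a block, the calls were 7 in iG+A (12.7% of all genes under the block), 5 in iG+P (10.9%) and 7 in iGPA cells (14.2%) and the same number in the other lines.

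**Figure D1:**
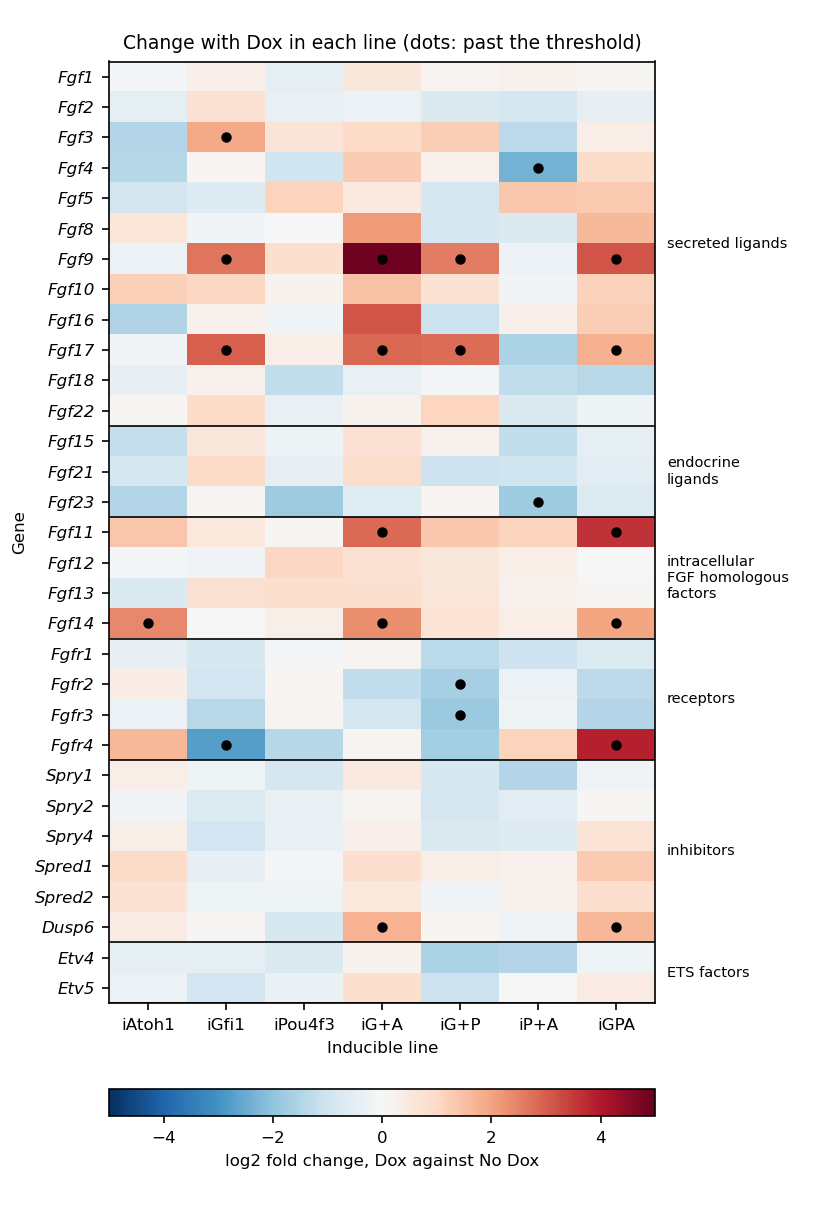
Log2 fold change of Dox against No Dox (colour, from blue for lower to red for higher with Dox) for the 31 FGF genes tested (rows, grouped by role) in the 7 inducible lines (columns), with a dot where the change was called. Dots for Fgf9 and Fgf17 stand in the 4 lines with Gfi1, and those for Fgf14 in 3 lines with Atoh1.

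The secreted ligands Fgf9 and Fgf17 rose in all 4 lines that carry Gfi1, alone or combined, and were called in none of the 3 lines without it. Fgf9 signals between epithelium and mesenchyme and acts in the developing inner ear, and Fgf17 belongs to the Fgf8 subfamily, which is active in the primitive streak and midbrain. Fgf3, a ligand of otic placode induction, rose in iGfi1 cells. Fgf4, the ligand through which pluripotent cells signal to themselves and to extra-embryonic cells, was called once, lower in iP+A cells. None of the other 8 secreted ligands tested was called in any line.

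Fgf9 (Entrez 14180, chromosome 14, 58689384 to 58731174 of NCBIM37, plus strand) had between 2.10 and 13.2 normalized counts in the 14 untreated libraries, with a median of 4.71. In iG+A libraries it had 2.43 and 13.2 without Dox and 230.5 and 180.2 with Dox, a rise of 4.87 on the log2 scale (SE 0.676, limma adjusted p = 1.72e-05). In iGPA cells it went from 4.58 and 4.84 to 47.4 and 52.7 (3.16, adjusted p = 8.85e-04). In iGfi1 cells the values were 4.19 and 2.10 without and 20.9 and 29.4 with Dox (2.69, adjusted p = 0.00680), and in iG+P cells 4.02 and 8.88 against 62.8 and 25.6 (2.55, adjusted p = 0.00658). All 8 Dox libraries of lines with Gfi1 lay above every untreated library, and the 6 Dox libraries of lines without Gfi1 (1.98 to 11.6) lay within the untreated range or below it. Fgf9 was therefore a gene of low level in these EBs, and in iGfi1 cells its rise was from 2.10 and 4.19 to 20.9 and 29.4 counts only. The call in iGfi1 cells was lost without No Dox replicate 2 (2.32, adjusted p = 0.0743), and that in iG+P cells without No Dox replicate 1 (2.06, adjusted p = 0.0827) or Dox replicate 1 (1.92, adjusted p = 0.0942).

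Fgf17 (Entrez 14171, chromosome 14, 71036012 to 71042075, minus strand) had 5.89 to 26.4 normalized counts in untreated libraries. In iGfi1 cells it had 16.0 and 8.01 without and 103 and 91.7 with Dox (log2 change 2.99, SE 0.657, limma adjusted p = 0.00271). In iG+A cells it went from 22.0 and 16.8 to 73.4 and 297 (2.88, adjusted p = 0.00190), and in iG+P cells from 9.21 and 17.1 to 150.3 and 56.3 (2.78, adjusted p = 0.00285). In each of these lines both Dox libraries were above both untreated ones, but the Dox clones of iG+A and of iG+P stood far apart. The call was lost without iG+A Dox replicate 2 (1.88, adjusted p = 0.0504) and without iG+P Dox replicate 1 (2.08, adjusted p = 0.0574). In iGPA cells the values were 18.3 and 5.89 without and 60.4 and 24.2 with Dox (1.77, adjusted p = 0.0349). That call was lost without No Dox replicate 2 (1.02, adjusted p = 0.326), without Dox replicate 1 (1.13, adjusted p = 0.286), in a fit of the iGPA groups alone (adjusted p = 0.100), with a pseudocount of 5 (1.45), under quantile normalization (1.46) and against all untreated libraries as one control (1.27). In iP+A cells Fgf17 had 22.4 and 25.7 without and 6.34 and 8.65 with Dox, a difference of −1.57 that was not called (adjusted p = 0.0889).

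Fgf3 (Entrez 14174, chromosome 7, 152023988 to 152030341, plus strand) was one of the more abundant ligands, with 283 to 1175 normalized counts in untreated libraries. In iGfi1 cells it had 439.6 and 696 without and 2207 and 1895 with Dox (log2 change 1.88, SE 0.391, limma adjusted p = 0.00180). Both Dox values were above every untreated library. In iG+P cells it had 1175 and 809 without and 2547 and 2034 with Dox (1.22, adjusted p = 0.0212), below the fold threshold. Nor was it called in iG+A cells, at 310 and 645 without and 545 and 1401 with Dox (0.97). In iGPA cells it had 986 and 683 without and 1027 and 1057 with Dox (0.34), which was not called either. In both lines that carry Atoh1 without Gfi1 the Dox values were the lower ones. They were 233 and 378 against 809 and 818 in iAtoh1 (−1.45, adjusted p = 0.0119) and 131 and 155 against 283 and 446 in iP+A cells (−1.31, adjusted p = 0.0193), with no overlap and short of the fold threshold. Against all untreated libraries as one control Fgf3 was called in iG+P (1.92, adjusted p = 3.06e-04) and iP+A cells (−2.07, adjusted p = 1.97e-04). It was also called in iAtoh1 cells without Dox replicate 2 (−1.80), in iP+A cells without No Dox replicate 1 (−1.64) and in iG+A cells without Dox replicate 1 (1.65).

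Fgf4 (Entrez 14175, chromosome 7, 152047291 to 152051148, plus strand) lies next to Fgf3. In iP+A cells it had 49.9 and 400.4 normalized counts without and 19.9 and 36.5 with Dox (−2.35, SE 0.761, limma adjusted p = 0.0300). The untreated clones stood far apart, and both lay above the Dox clones. The call was lost without No Dox replicate 2 (−0.86, adjusted p = 0.478), Dox replicate 1 (−1.93, adjusted p = 0.202) or Dox replicate 2 (−2.77, adjusted p = 0.0527), in a fit of the iP+A groups alone (adjusted p = 0.202) and against all untreated libraries (−1.45, adjusted p = 0.123).

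The 250 bases before the start of Fgf9, Fgf3 and Fgf4 are shown from RefSeq (GRCm38.p6, 5′ to 3′ on the gene's strand), since these ligands, with Fgf17, differed between lines with and without Gfi1. Capitals mark a match to AATCACNGC, letters that hold the AATC core of Gfi1 sites, on either strand. It occurs in 0.776% of 32851 RefSeq promoter windows of this length. The shorter AAATCAC, which shares AATCAC with it, occurs in 2.75% of the windows and in none of the FGF windows. A match is a run of letters and not a bound site.
Fgf9 (chr14:58072436-58072685, plus strand): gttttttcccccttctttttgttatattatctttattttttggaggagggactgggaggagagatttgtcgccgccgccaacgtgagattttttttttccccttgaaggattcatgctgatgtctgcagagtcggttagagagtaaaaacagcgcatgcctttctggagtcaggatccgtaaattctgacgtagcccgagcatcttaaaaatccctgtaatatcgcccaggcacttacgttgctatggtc
Fgf3 (chr7:144838362-144838611, plus strand): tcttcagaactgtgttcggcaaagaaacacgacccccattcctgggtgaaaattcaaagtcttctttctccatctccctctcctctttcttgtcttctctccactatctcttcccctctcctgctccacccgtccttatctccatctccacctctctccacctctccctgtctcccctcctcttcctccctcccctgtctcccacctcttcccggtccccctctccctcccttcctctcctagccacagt
Fgf4 (chr7:144861136-144861385, plus strand): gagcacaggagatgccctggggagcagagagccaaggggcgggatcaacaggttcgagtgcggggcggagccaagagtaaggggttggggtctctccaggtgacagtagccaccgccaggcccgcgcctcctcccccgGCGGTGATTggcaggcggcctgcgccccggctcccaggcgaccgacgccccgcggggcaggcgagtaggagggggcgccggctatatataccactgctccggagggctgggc
Of the 3 windows only that of Fgf4 holds a match, on the minus strand, 112 to 104 bases before the start. Over all 33 windows found for 25 of the 34 genes, the 9-letter motif was in 2, those of Fgf4 and the inhibitor Spred1. Fgf1, Fgf8, Fgf15, Fgf16, Fgf17, Fgf20, Fgfr1, Spry4 and Etv4 have no window in this table.

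**Figure D2:**
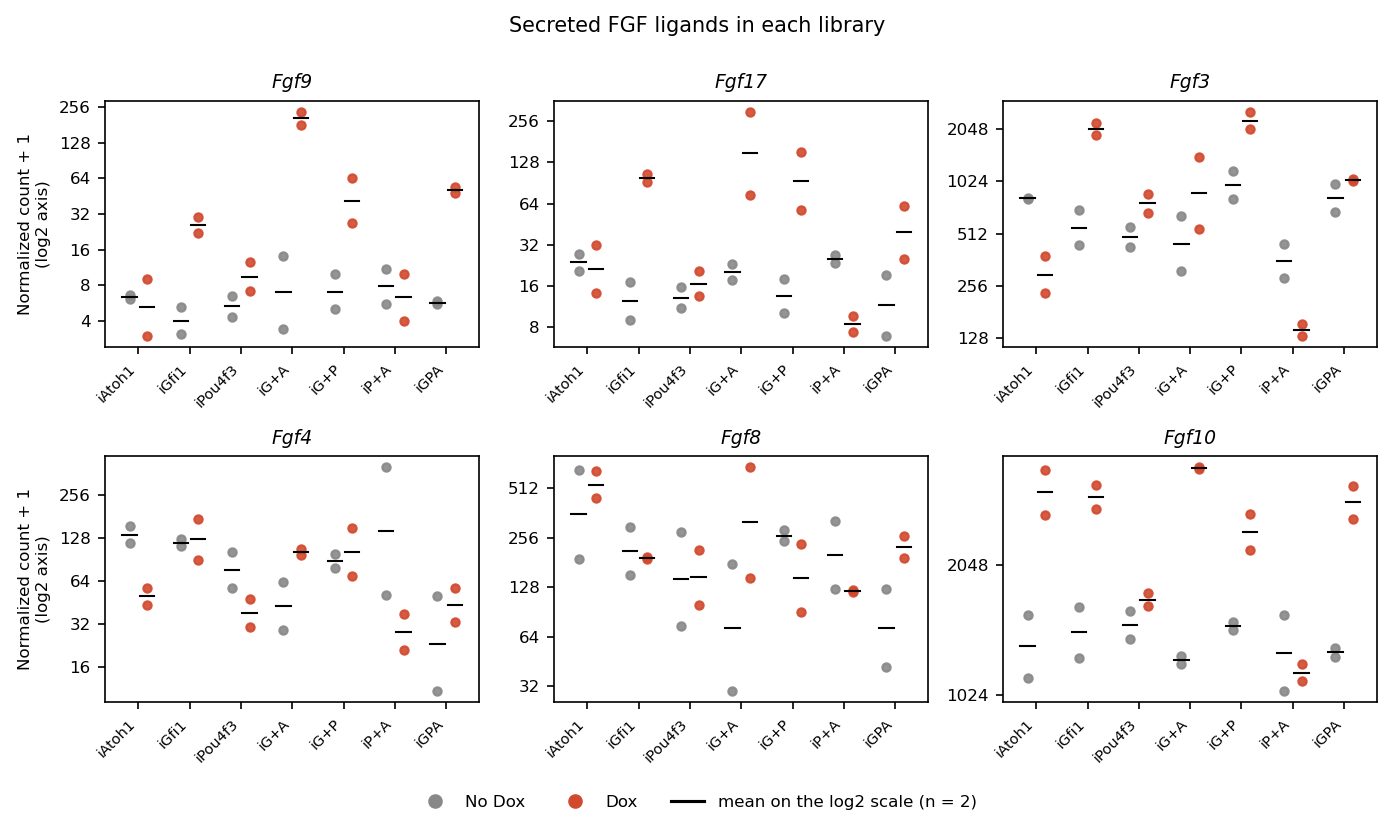
Normalized count + 1 (log2 axis) of 6 secreted ligands in each library, for No Dox (grey) and Dox (red) of the 7 lines, with a bar at the mean on the log2 scale (n = 2). The Dox libraries of Fgf9 in iGfi1, iG+A, iG+P and iGPA cells (20.9 to 230.5 normalized counts) stand above all untreated ones (2.10 to 13.2).

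Fgf10, a mesenchymal ligand that binds Fgfr2 and acts in otic and limb outgrowth, was higher with Dox in 5 lines by less than the threshold. In iG+A cells it was called under rescaling by the 75th percentile or without No Dox replicate 1 (1.51). It had 1258 and 1204 normalized counts without and 3439 and 3414 with Dox in iG+A cells (log2 change 1.48, SE 0.183, limma adjusted p = 5.05e-06). The differences were 1.19 in iAtoh1 (adjusted p = 1.54e-04), 1.15 in iGPA (5.32e-05), 1.04 in iGfi1 (5.09e-04) and 0.72 in iG+P cells (0.00479). In iPou4f3 cells it was 0.19 (adjusted p = 0.641) and in iP+A cells −0.15 (0.603). Per kilobase of exon Fgf10 (median 293 normalized counts, range 227 to 356) and Fgf3 (median 285, range 122 to 505) stood at overlapping levels in untreated libraries.

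Fgf8, a ligand of the primitive streak, varied between clones. In iG+A cells it had 29.0 and 176 normalized counts without and 146 and 685 with Dox (2.12, limma adjusted p = 0.0600), and in iGPA cells 124 and 41.3 against 262 and 192 (1.63, adjusted p = 0.138). With the replicate number as a block, which compares each Dox library with the untreated library of the same number, both were called (adjusted p = 0.00266 and 0.0107). Fgf16, a ligand of the Fgf9 subfamily, had 3.48 and 1.12 without and 37.2 and 18.3 with Dox in iG+A cells (3.14, adjusted p = 0.0528, or 0.00349 with the block). In that line Fgf16 was also called with a pseudocount of 5 (2.12, adjusted p = 0.0114) and in a fit of the groups alone (adjusted p = 0.0278). The same held against all untreated libraries (2.92, adjusted p = 0.0135) and without some single libraries of other lines (3.14). It was listed at 0 in 5 of 28 libraries.

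The other secreted ligands were not called in any line. Fgf5, an epiblast marker, ranged from 1.16 to 518 normalized counts over untreated libraries and had the largest SE of the genes named here (1.49). Fgf1 (10.5 to 50.8), Fgf2 (18.6 to 52.6), Fgf18 (25.4 to 149.5) and Fgf22 (5.30 to 18.0) were low in untreated libraries and had adjusted p of 0.383, 0.233, 0.0556 and 0.0828 or more in the 7 lines. Fgf18 was called, lower with Dox, in iGPA cells under quantile normalization (−1.70, adjusted p = 0.0205) and in iP+A cells without No Dox replicate 2 (−2.06, adjusted p = 0.0302). Exons of Fgf2 overlap those of Nudt6, Cetn4 and Bbs12, exons of Fgf10 those of Gm16263, and the counting is not stated to use strand, so reads in the overlaps cannot be assigned to 1 gene.

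Markers of primitive streak and nascent mesoderm, cells known to express Fgf3, Fgf4, Fgf8 and Fgf17, were higher in several of the same lines. Of 10 such markers, 4 rose in iGPA, 3 in iG+P, 1 in iG+A and none in the other 4 lines. Their summed level went from between 553 and 943 to between 5942 and 6053 normalized counts in iGPA cells, from 1588 and 2234 to 4051 and 6395 in iG+P, from 964 and 1783 to 2516 and 3332 in iGfi1, and from 609 and 1458 to 757 and 3619 in iG+A cells. Without Gfi1 the sums were 1260 and 3813 against 1705 and 1971 in iAtoh1, 766 and 1719 against 1030 and 1704 in iPou4f3, and 747 and 2124 against 936 and 944 in iP+A cells. In iGPA and iG+P cells a large part of the sum was Lhx1, a gene also expressed in neurons, with 3950 and 4771 normalized counts with Dox in iGPA and 2778 and 2490 in iG+P cells. Without Lhx1 the sums went from 466 and 759 to 1171 and 2103 in iGPA cells, from 1246 and 1831 to 1562 and 3617 in iG+P, from 794 and 1504 to 1818 and 2730 in iGfi1, and from 576 and 1263 to 549.6 and 3242 in iG+A cells. Msgn1 was at 0 in 7 untreated and 1 Dox libraries, and no other marker of the list was at 0. The part of these cells in the ligand results was not tested.

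Endocrine ligands act at a distance and need Klotho co-receptors. Fgf23, the regulator of phosphate, had 12.2 and 12.0 normalized counts without and 2.72 and 2.88 with Dox in iP+A cells (log2 change −1.78, SE 0.546, limma adjusted p = 0.0224). It was close to the limit of detection throughout, at 1.78 to 13.9 counts over the 28 libraries. The call was lost without any single library of that line (adjusted p 0.0801 to 0.107), with a pseudocount of 5 (−1.13) and against all untreated libraries (−1.18). Fgf15, the gut hormone that represses bile acid synthesis in the adult and is expressed in the embryonic brain, had 201 to 1600.5 normalized counts in untreated libraries and gave no call. Its values were 1111 and 1125 without and 430.2 and 557 with Dox in iAtoh1 cells (−1.19, adjusted p = 0.109) and 408.6 and 624 against 244 and 189 in iP+A cells (−1.23, adjusted p = 0.0948). It was called in iP+A cells against all untreated libraries (−1.71, adjusted p = 0.00658) and in iG+A cells without No Dox replicate 2 (1.82, adjusted p = 0.00701). Its exons overlap those of Gm17685 on the opposite strand. Fgf21, the hormone of fasting, stayed at or below 12.6 counts.

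Of the 4 FGF homologous factors, Fgf11 and Fgf14 rose and Fgf12 and Fgf13 were not called in any line. Fgf14 rose in iAtoh1, iG+A and iGPA cells, each of which carries Atoh1, and was not called in iP+A cells, which carry it as well. Fgf11 rose in iG+A and iGPA cells, with the smallest adjusted p of the 217 tests. Both bind neuronal sodium channels, and mutation of Fgf14 is a known cause of ataxia.

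Fgf11 (Entrez 14166, chromosome 11, 69609570 to 69615359, minus strand) had 62.9 to 158 normalized counts in untreated libraries. In iGPA cells it had 62.9 and 66.8 without and 848 and 778 with Dox (log2 change 3.63, SE 0.276, limma adjusted p = 9.06e-09). In iG+A cells it went from 66.1 and 71.7 to 519 and 487 (2.85, adjusted p = 2.95e-07). In both lines all Dox values exceeded every untreated value, and both calls held without any single library. In 3 other lines Fgf11 was higher with Dox by less than the fold threshold, with 287 and 203 against 121 and 71.0 in iAtoh1 (1.37, adjusted p = 0.00160), 467 and 327 against 158 and 146 in iG+P (1.36, adjusted p = 8.33e-04) and 195 and 205 against 101 and 81.7 in iP+A cells (1.13, adjusted p = 0.00569). Without iAtoh1 No Dox replicate 1 it was called in iAtoh1 cells (1.75, adjusted p = 9.32e-04), and so it was without iAtoh1 Dox replicate 2 (1.62). In iG+P cells it was called against all untreated libraries (2.11, adjusted p = 1.83e-06) and without Dox replicate 2 (1.61, adjusted p = 0.00157). In iPou4f3 cells the values overlapped, at 82.4 and 85.8 without and 78.4 and 95.8 with Dox (0.04, adjusted p = 0.961).

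Fgf14 (Entrez 14169, chromosome 14, 124377129 to 125076349, minus strand) had 33.0 to 72.4 normalized counts in untreated libraries. In iAtoh1 cells it had 72.4 and 36.5 without and 379.7 and 199.6 with Dox (log2 change 2.40, SE 0.459, limma adjusted p = 0.00107). In iG+A cells it went from 60.8 and 62.3 to 178 and 535 (2.31, adjusted p = 6.05e-04), and in iGPA cells from 44.2 and 36.6 to 125 and 205 (1.97, adjusted p = 0.00184). All 6 Dox values were above every untreated library of any line, and the 3 calls held without any single library. In a fit of the iAtoh1 groups alone the adjusted p was 0.0564. In iP+A cells the values overlapped, at 33.0 and 48.2 without and 66.8 and 38.4 with Dox (0.34, adjusted p = 0.640).

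The 250 bases before a RefSeq start of Fgf11 and Fgf14 are shown for the E-box CAGCTG, in capitals, the kind of sequence bound by Atoh1 and other basic helix-loop-helix factors. The Fgf14 start shown lies inside the extent of the gene given above. The outermost start of Fgf14 has no window here. The motif reads the same on both strands, and neither of the other motifs searched contains it. It occurs in 13.0% of the 32851 promoter windows and in 6 of the 33 FGF windows, those of Fgf11, Fgf13, Fgf14, Fgf22, Fgfr3 and Etv5.
Fgf11 (chr11:69802281-69802530, minus strand): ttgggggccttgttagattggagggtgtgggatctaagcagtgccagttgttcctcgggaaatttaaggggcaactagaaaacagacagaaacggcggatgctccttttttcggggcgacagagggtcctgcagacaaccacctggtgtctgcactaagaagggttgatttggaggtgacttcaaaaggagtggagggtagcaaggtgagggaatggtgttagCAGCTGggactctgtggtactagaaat
Fgf14 (chr14:124192547-124192796, minus strand): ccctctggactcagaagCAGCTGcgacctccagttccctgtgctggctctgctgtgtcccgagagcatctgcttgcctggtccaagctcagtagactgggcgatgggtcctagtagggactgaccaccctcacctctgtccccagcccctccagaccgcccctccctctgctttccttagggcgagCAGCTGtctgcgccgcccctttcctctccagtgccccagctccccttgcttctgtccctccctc
The match in Fgf11 lies 27 to 22 bases before the start, and those in Fgf14 233 to 228 and 64 to 59 bases before its internal start. Of the 6 genes with a match, Fgf13, Fgf22 and Etv5 were not called in any line.

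**Figure D3:**
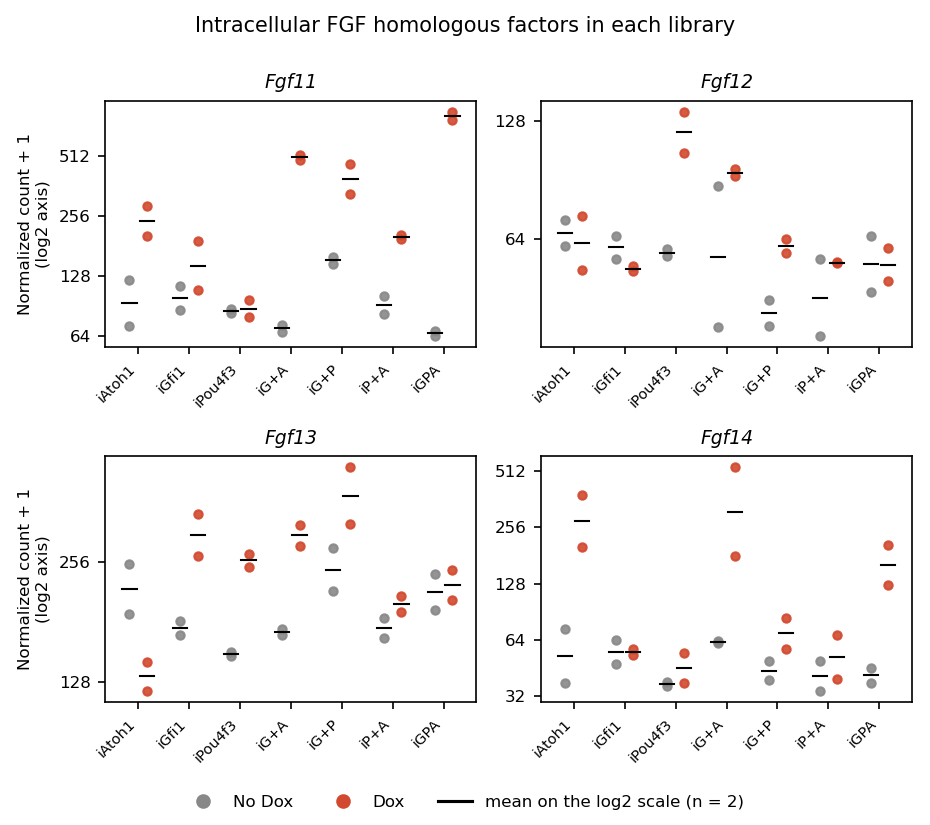
Normalized count + 1 (log2 axis) of the 4 FGF homologous factors in each library, for No Dox (grey) and Dox (red) of the 7 lines, with a bar at the mean on the log2 scale (n = 2). Fgf11 reached 778 and 848 normalized counts in iGPA cells with Dox, and Fgf12 had 35.3 to 133.6 over all libraries.

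Fgf13 (Entrez 14168, chromosome X, 56315322 to 56821248, minus strand) was lower with Dox in iAtoh1 cells, at 143 and 120.1 against 252 and 188 (−0.73, limma adjusted p = 0.0132), and higher in iG+A (0.81, adjusted p = 0.00330), iPou4f3 (0.79, 0.0291), iGfi1 (0.78, 0.00775) and iG+P cells (0.62, 0.0217). None of these reached the fold threshold. Fgf12 had 35.3 to 86.4 normalized counts in untreated and 49.1 to 133.6 in Dox libraries, and the highest of its differences was 1.02 in iPou4f3 cells (adjusted p = 0.0780).

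Neuronal markers rose in the lines with Atoh1 and in others. Of 10, 10 rose in iP+A, 9 in iGPA, 4 in iAtoh1, 4 in iG+A, 3 in iPou4f3, 3 in iG+P and none in iGfi1 cells. Their summed level with Dox was 17592 and 23770 normalized counts in iP+A, 8149 and 8174 in iGPA, 1885 and 2933 in iAtoh1, 1271 and 1598 in iG+A and 818 to 2285 in the other 3 lines, against 439.6 to 1385 in untreated libraries. Nefm was at 0 in 1 Dox library and no other marker in any. The line with the highest neuronal sums, iP+A, gave no call for any homologous factor. The part of neurons in the rises of Fgf11 and Fgf14 was not tested.

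The receptors gave 3 calls downward and 1 upward. Fgfr2 and Fgfr3 fell in iG+P cells, and Fgfr4 fell in iGfi1 cells and rose in iGPA cells. Fgfr1 was not called. Fgfr1 and Fgfr2 carry most FGF signals in mesenchyme and epithelium, Fgfr3 marks progenitors and supporting cells of the cochlea, and Fgfr4 is expressed in endoderm and early muscle.

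Fgfr2 (Entrez 14183, chromosome 7) had 7909.6 and 5713 normalized counts without and 1980.0 and 2226 with Dox in iG+P cells (log2 change −1.68, SE 0.226, limma adjusted p = 1.38e-05). The untreated iG+P libraries held the highest Fgfr2 of all 14, and without No Dox replicate 1 the change was −1.44 and not called. Against all untreated libraries as one control it was −0.90. Fgfr2 was also lower with Dox, by less than the threshold, in iGPA (1649 and 1449 against 4336 and 3410.6, −1.31, adjusted p = 1.17e-04), iG+A (1564 and 1196 against 2945 and 3443, −1.22, adjusted p = 3.31e-04) and iGfi1 cells (1867 and 2753 against 3813 and 5049, −0.95, adjusted p = 0.00467). Against all untreated libraries Fgfr2 was called in iG+A cells (−1.51, adjusted p = 4.42e-05). In the 8 Dox libraries with Gfi1 its level was 1196 to 2753, and in the 6 without it 2912 to 5892, with no overlap. The annotation of Fgfr2 includes a transcript that shares 314 exonic bases with Ctbp2 on the same strand.

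Fgfr3 (Entrez 14184, chromosome 5, 34064373 to 34079716, plus strand) had 3722 and 4090.1 normalized counts without and 982 and 1158 with Dox in iG+P cells (log2 change −1.87, SE 0.352, limma adjusted p = 4.17e-04), a call that held without any single library. The differences in iGPA cells (3733 and 4156 against 1182 and 1719 with Dox, −1.47, adjusted p = 0.00231) and iGfi1 cells (4045 and 4097 against 1275 and 1881, −1.39, adjusted p = 0.00702) did not overlap either but were short of the fold threshold. Fgfr3 was called in iGPA cells without No Dox replicate 1 (−1.54) or Dox replicate 2 (−1.74), and in iGfi1 cells without Dox replicate 2 (−1.67). In iPou4f3 and iP+A cells the Dox and No Dox values overlapped.

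Fgfr4 (Entrez 14186, chromosome 13, 55254001 to 55270120, plus strand) had 85.4 and 33.8 normalized counts without and 694 and 946 with Dox in iGPA cells (log2 change 3.89, SE 0.781, limma adjusted p = 5.06e-04). In iGfi1 cells it had 156 and 298 without and 29.0 and 34.0 with Dox (−2.74, adjusted p = 0.0146). The second call was lost without No Dox replicate 2 (−2.28, adjusted p = 0.127) or Dox replicate 1 (−2.63, adjusted p = 0.0915) and against all untreated libraries as one control (−1.73, adjusted p = 0.0601). In iG+P cells Fgfr4 had 53.1 and 74.2 without and 16.5 and 20.6 with Dox (−1.71, adjusted p = 0.102), which was called in a fit of the groups alone (adjusted p = 0.0226) and against all untreated libraries (−2.46, adjusted p = 0.00502). Across lines, the 8 Dox libraries with Atoh1 had 97.4 to 946 normalized counts, all above the 6 without it, which had 16.5 to 34.0. The untreated libraries of the same lines overlapped, at 33.8 to 643 and 38.0 to 298. In iAtoh1 cells the untreated clones stood far apart, with 1 of them near the Dox values, at 643 and 79.4 without and 755 and 686 with Dox (1.66, adjusted p = 0.135). Without iAtoh1 No Dox replicate 1 it was called (3.16, adjusted p = 0.00888).

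Its 250 bases before the start are shown because Fgfr4 had the widest range of changes among the receptors, and they hold none of the motifs searched.
Fgfr4 (chr13:55152568-55152817, plus strand): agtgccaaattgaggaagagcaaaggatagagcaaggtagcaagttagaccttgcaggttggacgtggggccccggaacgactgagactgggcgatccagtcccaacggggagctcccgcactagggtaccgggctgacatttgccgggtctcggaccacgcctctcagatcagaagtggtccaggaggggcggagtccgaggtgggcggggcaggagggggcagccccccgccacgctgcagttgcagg
Per kilobase of exon, Fgfr3 (median 547 normalized counts) and Fgfr2 (median 465) overlapped widely in untreated libraries (253 to 1086 and 337 to 1015), and Fgfr4 was below both (median 23.6, range 9.52 to 181). Fgfr1 (Entrez 14182) carries 2 entries in the NCBIM37 annotation and was given no length. Its level was 5474 to 18204 normalized counts in untreated and 5022 to 8324 in Dox libraries. It was lower with Dox in iG+P (18204 and 15005 against 7347 and 5650.2, −1.36, limma adjusted p = 3.35e-04) and iP+A cells (11877 and 12178 against 5495 and 6409.5, −1.02, adjusted p = 0.00580), short of the fold threshold.

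Markers of fibroblasts and mesenchyme, in which Fgfr1 and Fgfr2 are expressed, were lower with Dox in the same lines. Of 12, 9 fell in iGPA, 6 in iG+P, 6 in iG+A, 3 in iAtoh1, 2 in iGfi1, 2 in iP+A and none in iPou4f3 cells. In the other direction, 1 rose in iGPA and 1 in iP+A cells. Their summed level went from 93380.1 and 144240 to 12306 and 16586 normalized counts in iGPA cells and from 77842 and 90069.5 to 13882 and 17879 in iG+P cells. Over all lines it was 63356 to 199681 in untreated and 12306 to 148607 in Dox libraries, and no marker of the list was at 0. The part of mesenchyme in the receptor results was not tested.

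Among the 6 inhibitors and 2 ETS factors, Dusp6 rose in iG+A and iGPA cells and no other was called. Dusp6 dephosphorylates ERK in the cytoplasm and is a common readout of FGF signalling, as are the Sprouty and Spred inhibitors and Etv4 and Etv5. Of these 8 genes, the number with a log2 change above 0 was 8 in iG+A (49.2% of all genes), 6 in iGPA (50.5%), 5 in iAtoh1 (48.9%), 2 in iG+P (50.3%), 2 in iP+A (46.5%), 1 in iGfi1 (52%) and 0 in iPou4f3 cells (49.1%).

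Dusp6 (Entrez 67603, chromosome 10, 98725865 to 98730122, plus strand) had 890.0 and 1209 normalized counts without and 2526 and 4803 with Dox in iG+A cells (log2 change 1.75, SE 0.329, limma adjusted p = 3.78e-04). In iGPA cells it went from 1071 and 776 to 2530.2 and 3369 (1.68, adjusted p = 4.08e-04). These 4 values were the highest of the 28 libraries. The fold fell below the threshold without iG+A Dox replicate 2 (1.28, adjusted p = 0.0119), and in iGPA cells without No Dox replicate 2 (1.45, adjusted p = 0.00985) or Dox replicate 2 (1.47, adjusted p = 0.00876) and against all untreated libraries as one control (1.27). In iAtoh1 cells (1673 and 1087 against 2135 and 1488) and in iGfi1 cells (1227 and 1542 against 1397 and 1449) the Dox and No Dox values overlapped.

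Spred1 was higher with Dox in iGPA (1.31, limma adjusted p = 0.00170), iAtoh1 (0.96, 0.0288) and iG+A cells (0.86, 0.0308), and Spred2 in iGPA (0.84, 0.00537) and iAtoh1 cells (0.72, 0.0271), all short of the fold threshold. Spry1 was lower with Dox in iP+A cells, at 1069 and 1389 without and 409 and 463 with Dox (−1.48, adjusted p = 0.00122). It was called there under quantile normalization (−1.60) and rescaling by the 75th percentile (−1.51). Spry2 was lower in iG+P cells (−0.85, adjusted p = 0.00292). Spry4 and Etv5 had adjusted p of 0.271 and 0.128 or more in every line.

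Etv4 had 309 and 260.1 normalized counts without and 132 and 68.2 with Dox in iG+P cells (−1.57, limma adjusted p = 0.0796), which was called with the replicate number as a block (adjusted p = 0.00495). Its Dox clones in iG+A cells spanned the untreated ones, at 63.6 and 489 against 103 and 235. Dusp6 rose in those same libraries.

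**Figure D4:**
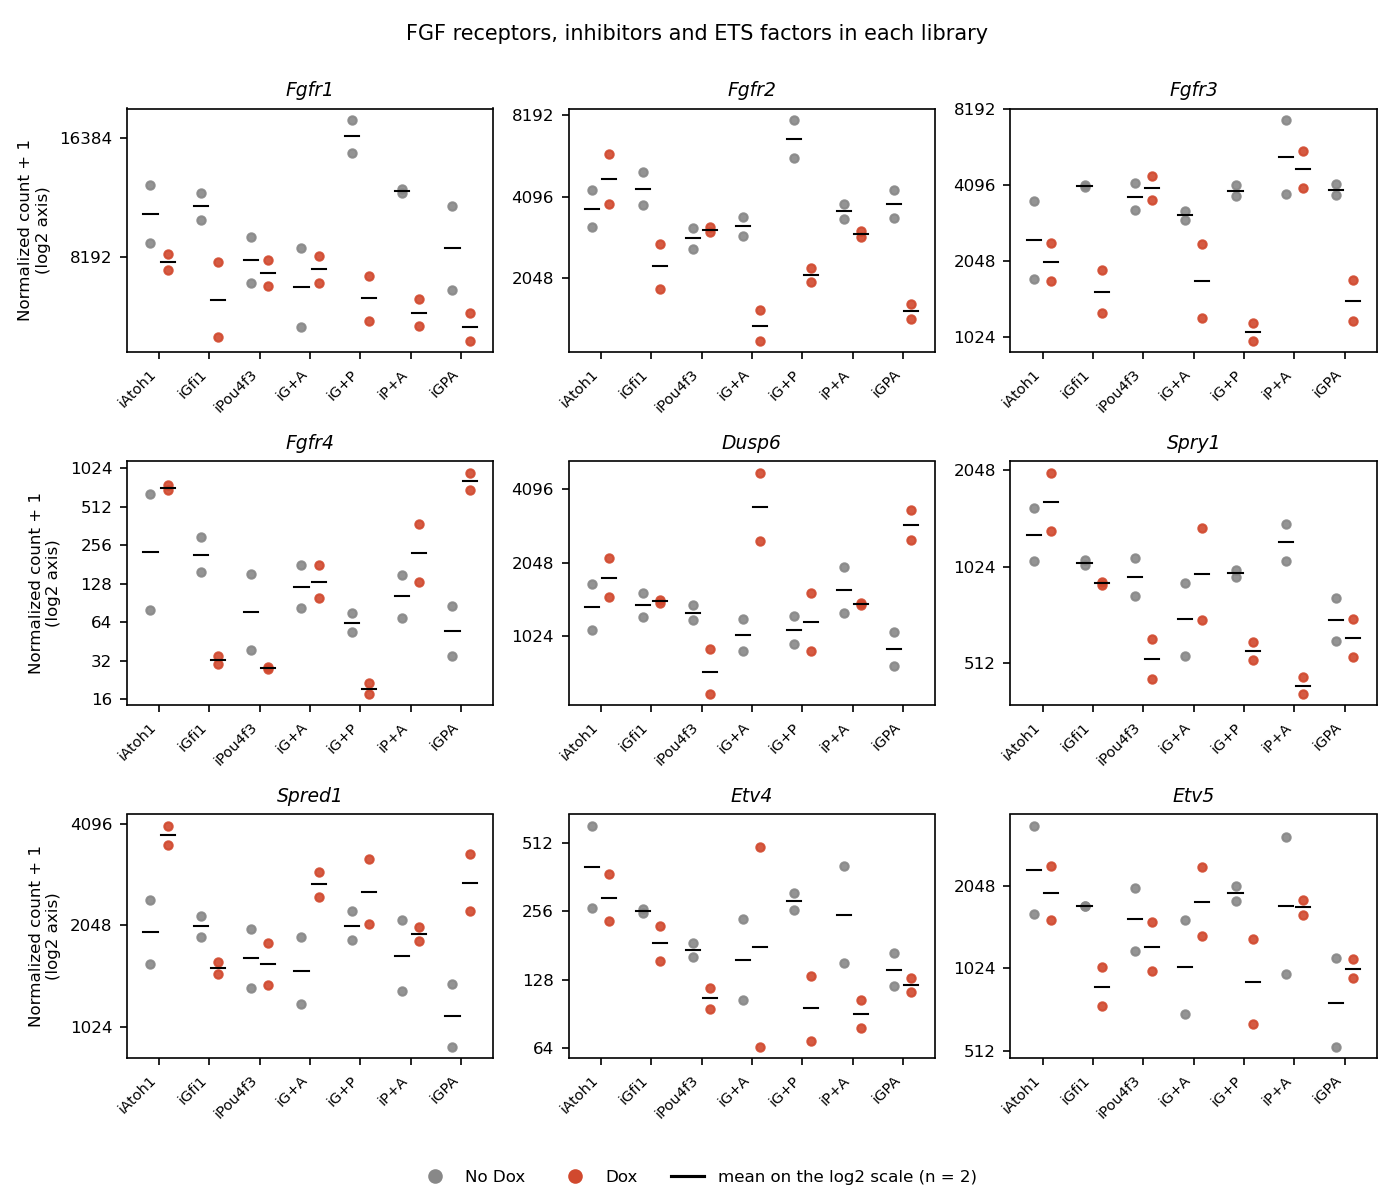
Normalized count + 1 (log2 axis) of the 4 receptors, 3 inhibitors and 2 ETS factors in each library, for No Dox (grey) and Dox (red) of the 7 lines, with a bar at the mean on the log2 scale (n = 2). Fgfr4 with Dox was at 97.4 to 946 normalized counts in lines with Atoh1 and 16.5 to 34.0 in lines without it.

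To set the members against the rest of the pathway, 57 further genes were counted by role. Of these, 26 tests over the 7 lines were called, on 11 genes, with 17 calls on 6 of 21 co-receptors and binding partners, 1 on 22 adaptors and kinases and 8 on 4 of 14 other targets and inhibitors. Per line, 4 rose and 4 fell in iG+A, 3 and 5 in iGPA, 1 and 3 in iGfi1, 1 and 3 in iG+P, 1 and 0 in iP+A, 0 and 1 in iAtoh1 and 0 and 0 in iPou4f3 cells. The called share of the 57 was 14% in iG+A (12.3% of all genes), 14% in iGPA (14%), 7.02% in iGfi1 (4.82%), 7.02% in iG+P (10.5%), 1.75% in iP+A (7.29%), 1.75% in iAtoh1 (5.4%) and 0% in iPou4f3 cells (2.08%), near or below the background in all lines but iGfi1. Over the 7 lines it was 6.52%, against 8.05% of all genes. The median log2 change of the 57 lay between −0.06 and 0.04 in every line.

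The co-receptor Flrt1, a transmembrane partner of FGF receptors, was listed at 0 in both untreated iGfi1, iG+A and iGPA libraries and had 80.2 and 104, 252 and 232, and 234 and 279 normalized counts with Dox there. In iG+P cells it had 23.5 and 0 without and 427 and 287 with Dox. These are again the 4 lines with Gfi1. Klotho (Kl), the co-receptor of endocrine FGFs, rose in iG+A (3.25, limma adjusted p = 8.06e-06) and iGPA cells (2.04, adjusted p = 6.36e-04). The heparan sulphate sulphatase Sulf1 fell in the same 4 lines, by −3.15 in iGPA, −2.82 in iG+P, −1.97 in iG+A and −1.66 in iGfi1 cells. Flrt3 fell in iGPA (−2.40), iG+A (−1.92) and iGfi1 cells (−1.56), the glypican Gpc3 in iGPA (−2.03) and iG+P (−1.87), and Gpc4 in iAtoh1 (−1.59) and iGPA cells (−1.61).

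Of the adaptors and kinases, the adaptor Shc1 alone was called, with 5987 and 5903 normalized counts without and 17146 and 18186 with Dox in iP+A cells (1.57, SE 0.0848, limma adjusted p = 3.20e-10). The Sprouty family member Spry3 fell in iGPA (−3.84), iG+P (−2.71), iG+A (−2.64) and iGfi1 cells (−1.57), at 24.1 to 70.7 normalized counts without and 2.05 to 21.6 with Dox in these lines. Spred3 rose in iG+A (1.79), and Dusp14 in iG+A (2.11) and iGPA cells (1.86). Fos, an early target of ERK that also responds to dissociation, fell in iG+A cells (−2.02, adjusted p = 0.00959). Of 10 other immediate early genes of dissociation and sorting, 1 fell in iG+A cells and none was called in the other lines.

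The Dox effects were then compared between lines, to ask which factor of the cassette a response went with. Each difference is a mean Dox effect of the lines with a factor minus that of the lines without it, and these contrasts share all 28 libraries. No line lacks every factor, so each other factor is in a larger share of the lines without a factor than of those with it. The effect of a factor can therefore enter the difference given for another. With Gfi1, 4 of 31 FGF genes were called, all upward (3.88% of all genes were higher, 2.96% lower and 6.84% called). They were Fgf9 (difference 3.24, SE 0.516, limma adjusted p = 8.37e-05), Fgf17 (3.06, SE 0.501, adjusted p = 1.07e-04), Fgf4 (2.21, SE 0.582, adjusted p = 0.00595) and Fgf3 (1.81, SE 0.299, adjusted p = 1.15e-04). All 4 are secreted ligands, and the 4 calls held without any single library. Fgf3 had Dox effects of 1.88 in iGfi1, 1.22 in iG+P, 0.97 in iG+A and 0.34 in iGPA cells, of which only the first was called. In lines without Gfi1 they were −1.45 in iAtoh1, −1.31 in iP+A and 0.64 in iPou4f3 cells. The Fgf3 difference thus also held lower values in iAtoh1 and iP+A cells. For Fgf4 the difference lay largely in lower values without Gfi1. Its Dox effects were −2.35 in iP+A, −1.43 in iAtoh1 and −1.01 in iPou4f3 cells, and 1.27 in iG+A, 0.91 in iGPA, 0.21 in iG+P and 0.08 in iGfi1 cells, of which only that in iP+A was called. The endocrine ligand Fgf23 was short of the threshold (1.42, adjusted p = 0.0119) and was called with a pseudocount of 0.5 (1.57) and without any of 7 single libraries (at most 1.60). Fgf4 was not called when the Dox libraries were compared alone, without the untreated ones (1.21, adjusted p = 0.0196), an alternative added after the data had been seen. The median difference of the 31 genes was 0.48 for Gfi1, 0.27 for Atoh1 and −0.44 for Pou4f3, against 0.03, 0.01 and −0.01 over all genes. Fgfr2 (−1.35, adjusted p = 8.02e-06) and Fgfr3 (−1.29, adjusted p = 0.00102) were lower with Gfi1 by less than the fold threshold.

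With Atoh1, 3 genes were called (2.99% of all genes were higher, 1.59% lower and 4.59% called). Fgfr4 (3.67, SE 0.596, limma adjusted p = 1.31e-04) and Fgf11 (1.60, SE 0.211, adjusted p = 1.56e-05) were higher and Fgf3 (−1.61, SE 0.299, adjusted p = 4.37e-04) was lower. The Fgfr4 call held without any single library. Its Dox effects were 3.89 in iGPA, 1.66 in iAtoh1, 1.13 in iP+A and 0.12 in iG+A cells, and −2.74 in iGfi1, −1.71 in iG+P and −1.44 in iPou4f3 cells, so the difference also held lower values without Atoh1. Only those in iGPA and iGfi1 cells were called. Fgf11 was below the fold threshold in Dox libraries compared alone (1.14), under quantile normalization (1.48) and without iGfi1 Dox replicate 1 (1.46), and Fgf3 without iG+A No Dox replicate 2 (−1.48) or iG+A Dox replicate 1 (−1.44). Fgf14, which rose in 3 of the 4 lines, was just short of the threshold (1.44, adjusted p = 0.00413). It was called in Dox libraries compared alone (1.55, adjusted p = 5.13e-05) and without any of 9 single libraries (at most 1.63). With Pou4f3, limma called none of the 31 genes (1.81% of all genes were higher, 0.529% lower and 2.34% called), 6 (19.4%, against 23.4% of all genes) had an unadjusted p under 0.05, and no other setting called any at the same fold threshold. The smallest adjusted p was that of Fgf10 (−0.75, adjusted p = 0.00148), and Spry1 had −1.03 (adjusted p = 0.00601).

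**Figure D5:**
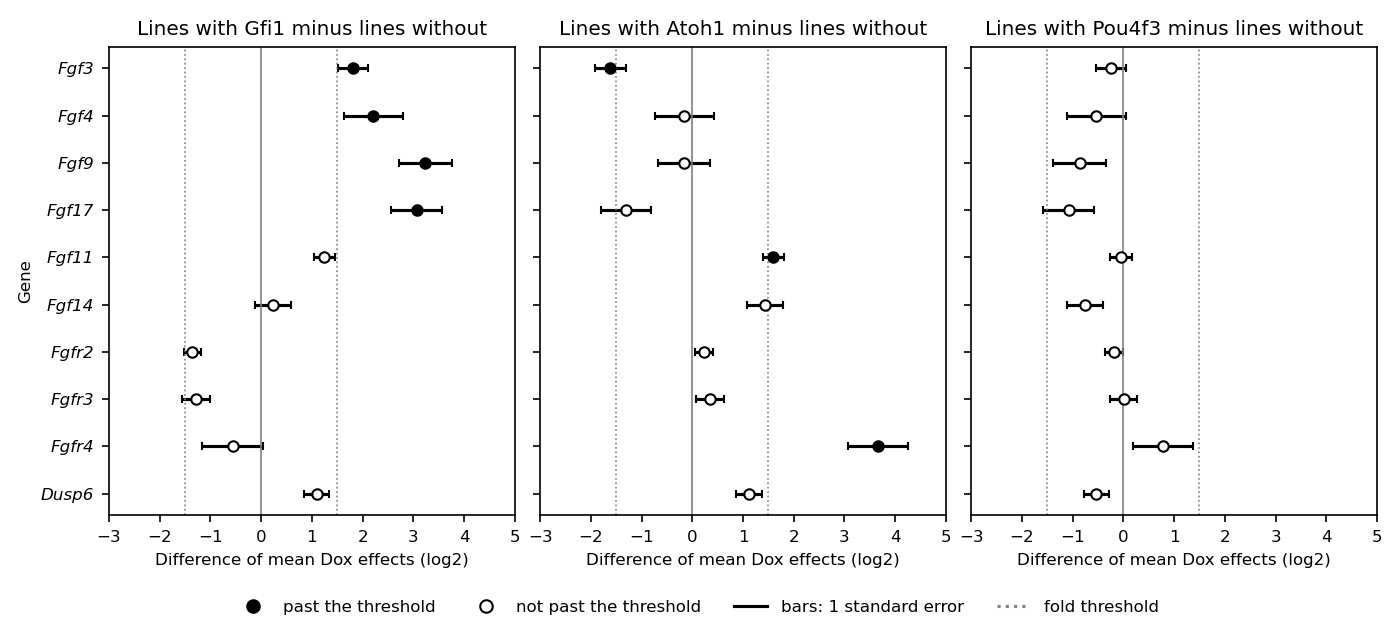
Difference of the mean Dox effects (log2 scale) between lines with and without Gfi1 (left), Atoh1 (middle) and Pou4f3 (right) for 10 FGF genes, as points with bars of 1 SE, filled where called, and dotted lines at the fold threshold of 1.5. Fgf9 and Fgf17 lie above 3 in the Gfi1 panel, and Fgfr4 alone does in the Atoh1 panel.

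Pairs of lines whose cassettes differ by Gfi1 alone were compared in the same way. The Dox effect in iG+A exceeded that in iAtoh1 cells for Fgf9 (5.16, SE 0.956, limma adjusted p = 0.00114), Fgf17 (3.03, adjusted p = 0.0334), Fgf3 (2.42, adjusted p = 0.00600) and Fgf13 (1.54, adjusted p = 0.00106) and was lower for Fgfr2 (−1.58, adjusted p = 0.00239). That was 4 of 31 genes higher and 1 lower, against 4.44% and 2.44% of all genes and 6.87% in all. Fgf9 and Fgf3 held without any single library, but in a fit of the 4 groups alone Fgf3 (adjusted p = 0.0856) and Fgf17 (adjusted p = 0.116) were not called. Fgf17 was lost without any of 6 libraries, either No Dox library of either line (adjusted p 0.0517 to 0.0983), iAtoh1 Dox replicate 2 (2.44, adjusted p = 0.132) or iG+A Dox replicate 2 (2.03, adjusted p = 0.167). Fgf13 dropped to 1.33 under quantile normalization, to 1.19 in Dox libraries alone, and to 1.34, 1.42 and 1.46 without iAtoh1 No Dox replicate 1, iAtoh1 Dox replicate 2 and iG+A Dox replicate 2. Without the same libraries Fgfr2 was at −1.35, −1.28 and −1.39, and at −1.47 without iG+A No Dox replicate 2, all short of the fold threshold. With the replicate number as a block 8 genes were called (7.9% of all genes), with Fgf16 (4.66, adjusted p = 0.00684), Fgf4 (2.69, adjusted p = 0.0259) and Fgf15 (1.93, adjusted p = 0.00297) added. Fgf11, at 1.48 (adjusted p = 0.0145), was called without iAtoh1 No Dox replicate 2 (1.86), iAtoh1 Dox replicate 1 (1.73), iG+A No Dox replicate 2 (1.54) or iG+A Dox replicate 2 (1.53) and under rescaling by the 75th percentile. Dusp6, at 1.34 (adjusted p = 0.0581), was called without iAtoh1 No Dox replicate 2 (1.66) or iG+A Dox replicate 1 (1.81).

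For iGPA against iP+A cells the Dox effect was higher for Fgf9 (3.46, limma adjusted p = 0.0169), Fgf17 (3.34, adjusted p = 0.0177), Fgf4 (3.26, adjusted p = 0.0424), Fgf11 (2.50, adjusted p = 2.48e-04), Dusp6 (1.87, adjusted p = 0.00908) and Fgf3 (1.66, adjusted p = 0.0445). That was 6 of 31 genes higher and none lower, against 4.76% and 2.84% of all genes and 7.6% in all. With the block Fgf8 was added (2.35, adjusted p = 0.0208). Fgf11 and Dusp6 held without any single library. Fgf9 was lost without iP+A No Dox replicate 1 (2.97, adjusted p = 0.0660) or iP+A Dox replicate 2 (2.81, adjusted p = 0.0875). Fgf17 was lost without replicate 2 of iGPA No Dox (2.60, adjusted p = 0.0973) or iP+A No Dox (3.24, adjusted p = 0.0501) and without replicate 1 of iGPA Dox (2.70, adjusted p = 0.0878) or iP+A Dox (3.14, adjusted p = 0.0646). Fgf4 was lost without any of 10 libraries, among them iP+A No Dox replicate 2 (1.77, adjusted p = 0.229) and iGPA No Dox replicate 2 (2.16, adjusted p = 0.216), and Fgf3 without any of 16 (adjusted p 0.0502 to 0.159), so these last calls depend on single libraries of these and other lines. In Dox libraries compared alone, the call of Fgf4 (0.64, adjusted p = 0.547) and that of Dusp6 (1.07, adjusted p = 0.0156) were lost, while Fgf14 (1.64, adjusted p = 0.00888) and Fgfr3 (−1.73, adjusted p = 8.02e-04) were called. Fgf4 was also lost with no filter, without the trend, under quantile normalization and in a fit of the groups alone (adjusted p 0.0502 to 0.172), and Fgf3 with no filter (adjusted p = 0.0512) or without the trend (adjusted p = 0.0651).

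Between iG+P and iPou4f3 cells no ligand was called. The Dox effect was lower in iG+P cells for Fgfr3 (−1.99, SE 0.498, limma adjusted p = 0.00956) and Fgfr2 (−1.78, SE 0.320, adjusted p = 8.13e-04), 2 of 31 lower and none higher, against 4.19% and 3.43% of all genes and 7.63% in all. Both calls held without any single library. Fgfr2 was not called in Dox libraries compared alone (−0.56, adjusted p = 0.0739), where its untreated level in iG+P cells does not enter. The differences of Fgf17 (2.44, adjusted p = 0.0782) and Fgf9 (1.71, adjusted p = 0.241) were above 0 without a call. In Dox libraries compared alone both were called (2.48, adjusted p = 0.00790, and 2.12, adjusted p = 0.0247), as were Fgf3 (1.58), Fgf11 (2.16) and Fgf15 (1.53).

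Untreated EBs of the 7 lines were compared with each other to describe the baseline. The moderated F test of limma called Fgfr1 (adjusted p = 0.0281), Fgfr2 (adjusted p = 0.0221) and Spry2 (adjusted p = 0.0179), 3 of 31 FGF genes against 12.1% of all genes. Untreated iG+P EBs had the highest levels of Fgfr1 (18204 and 15005 normalized counts) and Fgfr2 (7909.6 and 5713). Without iG+A No Dox replicate 1 none of the 3 was called, and without iG+P No Dox replicate 1 there was 1 call.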

How the data were processed

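Poly(A) RNA-seq libraries (KAPA mRNA HyperPrep, 1 µg of input RNA) were sequenced on a HiSeq instrument. Reads were trimmed by the authors with cutadapt, and the authors quantified transcripts of mm9 with kallisto, summarised them by gene and normalized the counts with DESeq2, and deposited the values as log2(normalized count + 1) by Entrez identifier. Whole reads could not be recovered from these values (72.4% to 79.4% of values up to 20 differed by less than 0.05 from an integer multiple of 1 read), so no count test was run. Values were fitted with limma 3.58.1 (R 4.3.3) with a mean-variance trend, 14 groups, 28 libraries and 14 residual degrees of freedom. The 16837 genes with 10 normalized counts or more in 2 libraries were kept, and p-values were adjusted over them by the Benjamini-Hochberg method. The fold threshold is the study's. Contrasts were Dox against No Dox in 7 lines, 6 differences of Dox effects and an F test over untreated groups, and the adjusted p-values printed come from these fits across all genes. The FGF genes, pathway genes and marker lists, and the choice of what to name (values for genes called in a line or factor contrast, ranges for the rest), were made with earlier results of these data known.

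Same-numbered Dox and No Dox libraries deviated together in all 7 lines (correlations 0.103 to 0.246), so the numbers were taken to pair them. A batch shared by all libraries of a number cannot be told apart from pairing of clones by these correlations. The main fit has no block, and blocked values stand beside the results they change. Replicate libraries correlated at 0.980 to 0.991 (Pearson) and none was a duplicate. Depth was estimated from the size of 1 read among low values. Positions and exon lengths are from GENCODE M1 (NCBIM37, mm9), symbols and promoter sequences from RefSeq (GRCm38.p6). The fit was tested on simulated data. Alternatives were other pseudocounts, filters, scalings and fold thresholds, no trend, the replicate block, smaller fits, a common control, each library left out and, chosen after seeing the data, Dox libraries alone.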

Additional observations from a re-analysis of the deposited data

Results flagged for a closer look

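The Dox effect differed between lines, by a test of the difference itself in the limma fit, for 10 FGF genes, with 20 calls of a gene in a contrast. Each value is a difference of Dox effects on the log2 scale, and the contrasts share libraries. For the ligand Fgf3 it was 1.81 for lines with Gfi1 minus lines without, −1.61 for lines with Atoh1 minus lines without, 2.42 for iG+A minus iAtoh1 and 1.66 for iGPA minus iP+A. For Fgf4 it was 2.21 with Gfi1 minus without and 3.26 for iGPA minus iP+A. Fgf9 gave 3.24 with Gfi1 minus without, 5.16 for iG+A minus iAtoh1 and 3.46 for iGPA minus iP+A, and Fgf17 gave 3.06, 3.03 and 3.34 for the same contrasts.

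Among the homologous factors, Fgf11 gave 1.60 with Atoh1 minus without and 2.50 for iGPA minus iP+A, and Fgf13 gave 1.54 for iG+A minus iAtoh1. Among the receptors, Fgfr2 gave −1.58 for iG+A minus iAtoh1 and −1.78 for iG+P minus iPou4f3, Fgfr3 gave −1.99 for iG+P minus iPou4f3, and Fgfr4 gave 3.67 with Atoh1 minus without. The phosphatase Dusp6 gave 1.87 for iGPA minus iP+A. Of these 20 differences, 11 remained past the threshold without any single library.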

How the results depend on the processing

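Of the 22 calls within lines, 15 held under every alternative fit that kept all libraries of the line and 11 without any single library. Of the 20 between lines, 11 and 11 did. None changed sign under any alternative, and no scaling moved the median of all genes by 0.1. Counts of FGF genes called changed by more than 1.5 times as follows, and the cause was not tested. In iP+A cells there was 1 call with a pseudocount of 5, with a filter of 50 normalized counts or in a fit of the groups compared alone. In iPou4f3 cells there was 1 with no filter, without the trend or against all untreated libraries as one control. In iAtoh1 cells there were 0 in a fit of the groups compared alone and 2 against all untreated libraries, and a fit of the untreated groups alone gave 0 differences among them. Dox libraries alone gave 6 for iG+P minus iPou4f3. The replicate block gave 8 for iG+A minus iAtoh1 and lost no call. At a fold threshold of 1 on the log2 scale there were 4 calls of 31 in iAtoh1 (8.85% of all genes), 7 in iG+P (16.3%), 6 in iP+A (11.2%), 10 in iGPA (20.4%), 10 for Gfi1 (13.2%), 1 for Pou4f3 (4.05%), 5 for Atoh1 (8.85%) and 4 for iG+P minus iPou4f3 (11.3%). Leaving out 1 library gave 1 to 3 calls in iAtoh1, 2 to 5 in iGfi1, 0 to 1 in iPou4f3, 3 to 8 in iG+A, 2 to 5 in iG+P, 0 to 3 in iP+A, 4 to 8 in iGPA, 4 to 5 for Gfi1, 0 to 0 for Pou4f3, 2 to 4 for Atoh1, 2 to 7 for iG+A minus iAtoh1, 2 to 4 for iG+P minus iPou4f3, 3 to 7 for iGPA minus iP+A and 0 to 5 among untreated lines. In iAtoh1 cells, Fgf11 (1.75) and Fgfr4 (3.16) were called without No Dox replicate 1, and in iG+A cells Fgf3 (1.65), Fgf8 (3.23) and Etv4 (1.64) without Dox replicate 1. The low counts of Fgf9, Fgf16, Fgf17 and Fgf23 limit how well their changes can be sized. With 2 clones a group, where leaving out a library left 1, that clone was assumed to vary like the other groups. A fit of the groups compared alone gave no separate value for the 3 factor contrasts, which use all groups.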
